A study of Mus musculus with 25 samples.

Results

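Livers of mice that drank 20% mannose as therapy were compared with livers of mice that drank 5% mannose as therapy, in 6 of the 25 liver RNA libraries of the series, 3 per dose, taken by their labels. All 6 animals were male C57BL/6J mice, 8 weeks old at the start and 20 weeks old at the end. For 12 weeks they received the FAT-MASH regimen, which models the fatty, inflamed and scarred liver of steatohepatitis (MASH). It combined a chow holding 41% sucrose, 21.1% fat and cholesterol at 1.25%, sugar water with 23.1 g/L fructose and 18.9 g/L glucose, and a weekly intraperitoneal injection of carbon tetrachloride, a liver toxin. In 20% therapy livers, mannose at 20% (weight per volume) had been in the drinking water for the last 6 weeks of the regimen, and in 5% therapy livers mannose at 5% for the same 6 weeks. Mannose was thus given on top of the sugars and the toxin that both doses shared. A further 4 groups of 3 mice were used for levels or for the timing of the dose: 20% prevention and 5% prevention, with the same regimen and mannose for all 12 weeks, FAT-MASH without mannose, and normal chow without mannose. Mice were housed 3 to 5 per cage. The cages, the hour of collection, the time since the last injection and the water drunk were not stated in the labels used, so p-values measure the spread between these mice, which may share a cage.

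Mannose is a hexose sugar that cells phosphorylate and then either pass to the fructose 6-phosphate pool through mannose phosphate isomerase (Mpi) or turn into GDP-mannose for glycoproteins through phosphomannomutase (Pmm2). Hepatocytes, the main cells of the liver, are mostly quiescent in the adult and enter the cell cycle after injury or loss of tissue, when genes of their metabolic and secretory work are known to fall. Carbon tetrachloride injures hepatocytes after the cytochrome Cyp2e1 converts it to a radical, and dietary fructose enters hepatocyte metabolism through ketohexokinase (Khk).

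The 20% therapy libraries held 40695097 to 46568176 counts and the 5% therapy libraries 31298299 to 55786288 counts. The 10 most abundant genes took 16.18% to 16.35% of the counts with 20% therapy and 18.08% to 19.23% with 5% therapy. On the first principal component of the 18 libraries of the labelled batch that holds them, which held 28.9% of the variance, the 20% therapy libraries lay between 43.3 and 78.29 and the 5% therapy libraries between -31.72 and 1.24. No library pair had counts closer than sampling noise allows. The hepatocyte markers Alb, Apoa1, Ttr, Serpina1c and Cyp2e1 summed to 59328 to 67179 CPM with 20% therapy and 86845 to 108351 CPM with 5% therapy, while the neutrophil and lymphocyte markers S100a8, S100a9, Cd3e and Cd79a summed to 16.8 to 23.9 CPM with 20% therapy and 8.04 to 13.8 CPM with 5% therapy. Alb was the largest part of the hepatocyte sum. Apoa1 overlapped between the doses, with 6552, 8028 and 6926 CPM with 20% therapy against 6327, 6273 and 8315 CPM with 5% therapy. The lymphocyte markers Cd3e and Cd79a each overlapped between the doses. Cd3e had 0.326 to 0.959 CPM with 20% therapy and 0.136 to 0.574 CPM with 5% therapy, and Cd79a 2.04 to 2.38 CPM and 1.66 to 2.74 CPM. In whole liver, fewer cells of a type and less RNA per cell cannot be told apart, which holds for every cell type list below.

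Of 19571 genes tested, 3455 (17.7%) differed between the doses under therapy, with 1630 higher (8.33%) and 1825 lower (9.33%) in 20% therapy livers. Calls are adjusted p under 0.05 in edgeR's quasi-likelihood test, adjusted by Benjamini-Hochberg over all genes tested, and 738 of the higher and 511 of the lower genes changed at least 2-fold. Levels are CPM, a gene's count as a share of its library's counts, scaled by the trimmed mean of M values (TMM), and each fold change is 20% therapy over 5% therapy on the log2 scale with its standard error. The 3 values of one dose lay wholly above or below the 3 of the other for 6290 genes (32.1%), and 3279 of the called genes were among them. All genes together had a median log2 fold change of 0.01, and the 100 genes with the highest mean CPM one of -0.48. With library totals alone as the scaling, 4730 genes were higher and 897 lower, and the median over all genes moved up by 0.27, so directions below are relative to the TMM scaling and small falls depend on it. Leaving out 20% therapy replicate 1, 5% therapy replicate 1 or 5% therapy replicate 3 left 1065, 1069 and 1079 higher genes.

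The genes of mitosis were the most uniform group: 29 of 30 listed genes of the spindle, kinetochore and cytokinesis rose with 20% therapy and none fell, with a median log2 fold change of 3.86 against 0.01 over all genes tested. Cell division needs a spindle, kinetochores that tie chromosomes to it, and an ubiquitin ligase that ends the phase. Cdc20, an activator of that ligase, had 68.5, 21.4 and 35.3 CPM in 20% therapy livers, against 0.883, 2.93 and 1.61 CPM in 5% therapy livers (log2 fold change 4.51 ± 0.50, adjusted p = 5.75e-06). Its partner Ube2c, the ubiquitin-conjugating enzyme, had 51.4, 15.7 and 21.8 CPM in 20% therapy livers, against 1.15, 1.62 and 1.03 CPM in 5% therapy livers (log2 fold change 4.54 ± 0.41, adjusted p = 1.20e-06). Both genes were higher in every 20% therapy liver than in any 5% therapy liver, by 22.8-fold and 23.3-fold in the fit, and 20% therapy replicate 2 was the lowest of its group.

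The same order of libraries held for spindle genes. Hmmr, a spindle-associated hyaluronan receptor (ENSMUSG00000020330.17, chr11:40592222-40624249, minus strand, GRCm39), had 29.3, 9.03 and 17.9 CPM in 20% therapy livers, against 1.36, 0.682 and 0.191 CPM in 5% therapy livers (log2 fold change 4.74 ± 0.54, adjusted p = 7.36e-06). Plk1, the polo kinase of mitotic entry (ENSMUSG00000030867.8, chr7:121758662-121769096, plus strand, GRCm39), had 24.1, 6.95 and 13.3 CPM in 20% therapy livers, against 0.441, 0.986 and 0.402 CPM in 5% therapy livers (log2 fold change 4.60 ± 0.62, adjusted p = 3.86e-05). Tpx2, which activates Aurora kinase on the spindle, had 34, 8.42 and 19.2 CPM in 20% therapy livers, against 1.02, 1.47 and 0.344 CPM in 5% therapy livers (log2 fold change 4.47 ± 0.54, adjusted p = 1.41e-05). Each of these was high in 20% therapy replicate 1, intermediate in replicate 3 and lowest in replicate 2, and none overlapped with 5% therapy. Knstrn, a kinetochore protein, had 30.5, 7.49 and 16.1 CPM in 20% therapy livers, against 0.95, 0.809 and 0.861 CPM in 5% therapy livers (log2 fold change 4.37 ± 0.46, adjusted p = 3.89e-06). Ect2, the exchange factor that starts the cleavage furrow, had 43, 12.8 and 23.6 CPM in 20% therapy livers, against 1.12, 1.97 and 2.18 CPM in 5% therapy livers (log2 fold change 3.89 ± 0.43, adjusted p = 5.75e-06). The nuclear proliferation marker Mki67 had 85.8, 27.2 and 54.7 CPM in 20% therapy livers, against 2.58, 7 and 2.14 CPM in 5% therapy livers (log2 fold change 3.84 ± 0.50, adjusted p = 2.54e-05). Its mean level was 2.86 ± 1.08 CPM in FAT-MASH livers without mannose and 3.58 ± 2.35 CPM on normal chow (SD, n = 3 each), levels that are given without a test. The member not past the threshold was Pttg1, securin, with a log2 fold change of -0.24. Summed over the list, mitotic transcripts reached 800, 273 and 447 CPM in 20% therapy livers, against 62.8, 76.4 and 60.1 CPM in 5% therapy livers.

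**Figure D1:**
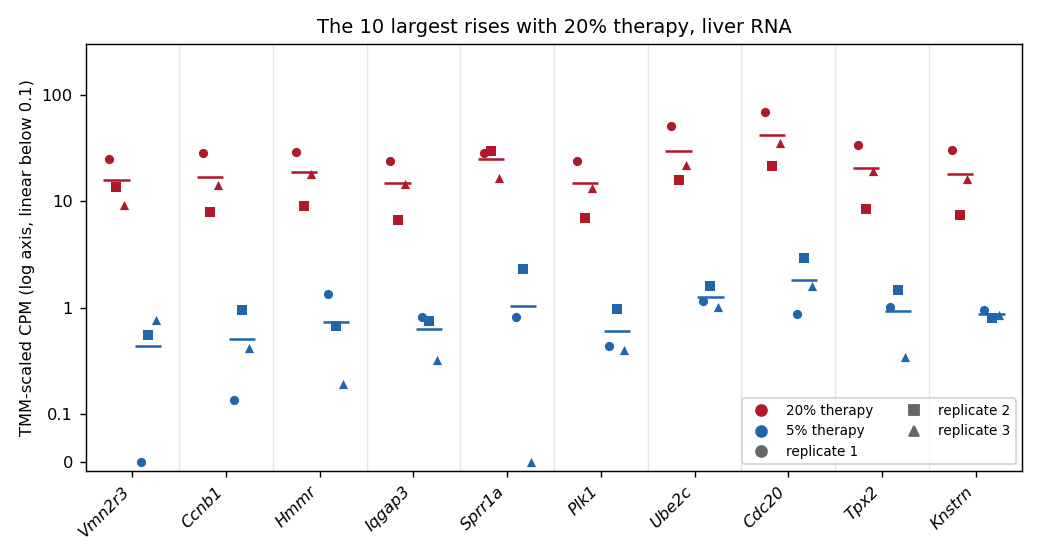
TMM-scaled CPM (y axis, log scale, linear below 0.1) of the 10 largest rises with 20% therapy, one symbol per library and a line at each group's mean, 20% therapy left of 5% therapy for each gene. All 20% therapy livers lie above all 5% therapy livers for the 10 genes, which were chosen for having no overlap and a mean of at least 5 CPM, and 20% therapy replicate 2 is the lowest of its group for 8 of them.

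The promoters of Hmmr, Plk1, Ube2c and Cdc20 are shown because they are the mitosis genes among the 10 largest rises whose window in the reference table holds both of a pair of motifs known from mitotic promoters. The windows run from 250 bases before to 50 bases after the annotated start, 5′ to 3′ on the gene's strand, from RefSeq on GRCm38.p6. Capitals mark the cell cycle genes homology region, searched as TTTGAA, and the CCAAT box, searched as CCAAT, each on both strands, so that they also appear as TTCAAA and ATTGG.
Hmmr (chr11:40733388-40733687, minus strand): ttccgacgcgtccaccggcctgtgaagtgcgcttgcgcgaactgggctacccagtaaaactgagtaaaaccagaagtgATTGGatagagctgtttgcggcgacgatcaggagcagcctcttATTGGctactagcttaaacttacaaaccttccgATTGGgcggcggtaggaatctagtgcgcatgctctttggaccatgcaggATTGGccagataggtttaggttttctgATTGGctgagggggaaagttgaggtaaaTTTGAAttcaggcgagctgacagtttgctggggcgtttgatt
Plk1 (chr7:122159185-122159484, plus strand): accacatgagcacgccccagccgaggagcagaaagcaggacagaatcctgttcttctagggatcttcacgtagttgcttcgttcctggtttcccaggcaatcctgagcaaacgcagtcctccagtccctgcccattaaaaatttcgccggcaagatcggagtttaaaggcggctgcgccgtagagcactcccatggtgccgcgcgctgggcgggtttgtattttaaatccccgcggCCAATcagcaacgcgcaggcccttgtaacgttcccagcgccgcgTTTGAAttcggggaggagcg
Ube2c (chr2:164769679-164769978, plus strand): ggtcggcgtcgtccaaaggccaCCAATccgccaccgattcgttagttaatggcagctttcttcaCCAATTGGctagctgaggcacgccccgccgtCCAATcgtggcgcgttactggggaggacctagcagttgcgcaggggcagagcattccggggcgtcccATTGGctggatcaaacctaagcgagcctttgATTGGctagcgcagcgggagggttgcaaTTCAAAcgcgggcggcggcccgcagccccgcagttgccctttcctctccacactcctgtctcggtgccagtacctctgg
Cdc20 (chr4:118437294-118437593, minus strand): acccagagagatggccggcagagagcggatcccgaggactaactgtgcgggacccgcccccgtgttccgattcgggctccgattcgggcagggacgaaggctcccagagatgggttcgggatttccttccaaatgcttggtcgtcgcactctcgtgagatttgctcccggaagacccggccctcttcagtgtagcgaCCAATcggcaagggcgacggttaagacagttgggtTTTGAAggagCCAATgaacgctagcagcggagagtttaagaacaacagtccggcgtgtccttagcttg
Each of the 4 windows holds 1 match to TTTGAA, with 5 matches to CCAAT in Hmmr, 1 in Plk1, 6 in Ube2c (2 of them overlapping on opposite strands) and 2 in Cdc20. Among the mitosis genes with a window, 21 of 27 (77.8%) held TTTGAA, 20 (74.1%) held CCAAT and 18 (66.7%) held both. Over all 27025 genes with a window the shares were 20.2%, 41.1% and 7.97%. Genes of DNA replication differed: 3 of 23 (13%) held TTTGAA and 15 (65.2%) held CCAAT, while 12 (52.2%) held TTTNNCGC, a core of the site that E2F factors bind, against 3 of 27 mitosis genes (11.1%) and 5.93% of all genes. These are matches of letters in fixed windows over all listed genes with a window, called or not, and no binding was measured.

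Genes of DNA replication and S phase also moved, with smaller changes: 22 of 30 rose and 1 fell, with a median log2 fold change of 1.19. The helicase subunit Mcm5 had 14.3, 10.3 and 17 CPM in 20% therapy livers, against 1.46, 2.81 and 1.57 CPM in 5% therapy livers (log2 fold change 2.83 ± 0.37, adjusted p = 2.54e-05). Mcm6, another subunit, had 28.7, 18.9 and 30.8 CPM in 20% therapy livers, against 8.86, 9.12 and 5.97 CPM in 5% therapy livers (log2 fold change 1.71 ± 0.20, adjusted p = 1.03e-05). Uhrf1, which carries DNA methylation through replication, had 10, 4.04 and 9.67 CPM in 20% therapy livers, against 0.815, 1.26 and 1.26 CPM in 5% therapy livers (log2 fold change 2.81 ± 0.34, adjusted p = 1.48e-05). None of the 3 overlapped between doses. The gene that fell was Mcm10, a replication initiation factor, with 17.7, 19.7 and 20.2 CPM in 20% therapy livers, against 74.3, 50.3 and 70.2 CPM in 5% therapy livers (log2 fold change -1.76 ± 0.18, adjusted p = 3.89e-06), opposite to Mcm2 to Mcm7, which rose, and also without overlap. The 7 members that did not pass included Tk1 (log2 fold change -0.22) and Gmnn (0.11).

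Of 25 cyclins, cyclin-dependent kinases and their inhibitors, 15 rose and 1 fell, with a median of 1.18. Ccnb1, the cyclin of mitotic entry (ENSMUSG00000041431.17, chr13:100915158-100923078, minus strand, GRCm39), had 28.7, 7.94 and 14.3 CPM in 20% therapy livers, against 0.136, 0.96 and 0.421 CPM in 5% therapy livers (log2 fold change 5.02 ± 0.57, adjusted p = 7.79e-06). Ccnb2, another B-type cyclin, had 24.7, 5.71 and 14.4 CPM in 20% therapy livers, against 0.747, 1.92 and 0.498 CPM in 5% therapy livers (log2 fold change 3.82 ± 0.46, adjusted p = 1.19e-05). Their kinase Cdk1 had 39.6, 15 and 21.3 CPM in 20% therapy livers, against 4.68, 3.71 and 3.94 CPM in 5% therapy livers (log2 fold change 2.62 ± 0.27, adjusted p = 3.04e-06). Ccnd1, the D-type cyclin that links growth signals to the cycle, had 161, 144 and 229 CPM in 20% therapy livers, against 16.6, 26.2 and 27.3 CPM in 5% therapy livers (log2 fold change 2.93 ± 0.29, adjusted p = 2.44e-06). Its 3 values with 20% therapy were all above 100 CPM, and FAT-MASH livers without mannose had 17.1 ± 5.23 CPM. The fall was Cdkn1c, an inhibitor of these kinases (log2 fold change -1.41 ± 0.40, adjusted p = 0.0176), and none of the list was lower without 20% therapy replicate 2 or 3 or 5% therapy replicate 2. The inhibitor Cdkn1a, also a target of p53, rose with 101, 87.8 and 77.2 CPM in 20% therapy livers, against 13.2, 41.3 and 22.4 CPM in 5% therapy livers (log2 fold change 1.79 ± 0.34, adjusted p = 0.000874). Among 16 E2F, MYB and FOXM1 factors, 4 rose and none fell, with a median of 0.56. Mybl1, a MYB family factor, had 35, 18.2 and 19.6 CPM in 20% therapy livers, against 2.27, 3.16 and 2.93 CPM in 5% therapy livers (log2 fold change 3.11 ± 0.27, adjusted p = 9.16e-07). Foxm1, the factor of late cycle genes, had 13.9, 4.82 and 9.98 CPM in 20% therapy livers, against 0.204, 1.49 and 1.17 CPM in 5% therapy livers (log2 fold change 3.29 ± 0.56, adjusted p = 0.000341). Rbl1 and Myc were the other two (1.36 and 1.83), and the Myc call was lost in 5 of the 6 fits that left out 1 therapy library, with adjusted p up to 0.113. With library totals as the scaling 11 of the 16 factors were higher. Iqgap3, a scaffold protein of dividing cells and one of the largest rises, had 23.7, 6.66 and 14.7 CPM in 20% therapy livers, against 0.815, 0.758 and 0.325 CPM in 5% therapy livers (log2 fold change 4.60 ± 0.49, adjusted p = 4.05e-06).

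Of 18 p53 target genes 4 rose and none fell (median 0.21). Btg2, an antiproliferative factor, had 60.8, 44.7 and 37.2 CPM in 20% therapy livers, against 12.4, 15.1 and 15.2 CPM in 5% therapy livers (log2 fold change 1.74 ± 0.32, adjusted p = 0.000777). The others were Cdkn1a, Gtse1 and the death receptor Tnfrsf10b, the last 2 with log2 fold changes of 2.07 ± 0.38 and 1.31 ± 0.32. Mdm2, Bax and Ccng1 had log2 fold changes of 0.07, 0.11 and -0.01, and with library totals 8 of the 18 were higher. Tnfrsf10b lost its call without 5% therapy replicate 3 (adjusted p = 0.052).

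Ligands and receptors that act on hepatocyte growth were called in both directions: 10 of 22 genes of EGF-family and HGF signalling rose and 3 fell, with a median of 0.59, with 5 lower without 5% therapy replicate 2, 7 with no filter on low counts and 1 with library totals. Areg, the ligand amphiregulin, had 4.73, 4.67 and 2.82 CPM in 20% therapy livers, against 0, 0.708 and 0.23 CPM in 5% therapy livers (log2 fold change 3.65 ± 0.72, adjusted p = 0.00175). Hgf, the hepatocyte growth factor, had a log2 fold change of 1.06 ± 0.24, while Hgfac, the protease that activates it, fell with 104, 110 and 98.1 CPM in 20% therapy livers, against 245, 158 and 243 CPM in 5% therapy livers (log2 fold change -1.05 ± 0.15, adjusted p = 6.70e-05). The HGF receptor Met also fell (-0.43 ± 0.10). Tnfrsf12a, the receptor of the cytokine TWEAK, had 82, 101 and 66 CPM in 20% therapy livers, against 9.54, 13.7 and 10.9 CPM in 5% therapy livers (log2 fold change 2.87 ± 0.27, adjusted p = 1.91e-06), which is 7.3-fold with no overlap. Ankrd1, a target of the YAP coactivator, had 4.77, 1.67 and 6.05 CPM in 20% therapy livers, against 0.339, 0.202 and 0.498 CPM in 5% therapy livers (log2 fold change 3.56 ± 0.64, adjusted p = 0.000564).

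Genes that mark fetal or injured liver rose as well, 13 of 20 with none lower and a median of 1.52. The tubulin genes were among them. Tubb2b had 14.8, 14.6 and 13.9 CPM in 20% therapy livers, against 1.87, 2.02 and 2.26 CPM in 5% therapy livers (log2 fold change 2.81 ± 0.22, adjusted p = 3.65e-07). Tubb6 had 66, 56.2 and 51.5 CPM in 20% therapy livers, against 14.6, 18 and 11.9 CPM in 5% therapy livers (log2 fold change 1.97 ± 0.19, adjusted p = 1.86e-06). Tubb2a, a close copy of Tubb2b with which reads may be shared, had 744, 1077 and 721 CPM in 20% therapy livers, against 188, 287 and 201 CPM in 5% therapy livers (log2 fold change 1.91 ± 0.19, adjusted p = 2.34e-06). The phospholipid-binding protein Anxa5 had 404, 453 and 490 CPM in 20% therapy livers, against 151, 208 and 141 CPM in 5% therapy livers (log2 fold change 1.43 ± 0.16, adjusted p = 5.72e-06). The doses lay apart in all 4 genes. Sprr1a, a small proline-rich protein of injured epithelia, had 28.2, 30 and 16.5 CPM in 20% therapy livers, against 0.815, 2.32 and 0 CPM in 5% therapy livers (log2 fold change 4.60 ± 0.88, adjusted p = 0.00129). The fetal markers Afp and Gpc3 did not pass, with log2 fold changes of -0.14 and -0.32.

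The integrated stress response lowers general translation and raises genes of amino acid supply through the factor ATF4. Of 20 of its genes, 13 rose and 1 fell, with a median of 1.15. Atf3, a stress-induced factor, had 49.5, 40.6 and 28.3 CPM in 20% therapy livers, against 3.39, 9.96 and 1.84 CPM in 5% therapy livers (log2 fold change 2.97 ± 0.44, adjusted p = 9.47e-05). Psat1 of serine synthesis had 26, 29.2 and 15.4 CPM in 20% therapy livers, against 2.78, 3.79 and 5.78 CPM in 5% therapy livers (log2 fold change 2.50 ± 0.32, adjusted p = 2.44e-05). Mthfd2 of mitochondrial folate metabolism had 17.5, 18.6 and 13.2 CPM in 20% therapy livers, against 3.26, 4.09 and 2.83 CPM in 5% therapy livers (log2 fold change 2.28 ± 0.29, adjusted p = 2.22e-05). Slc3a2, a subunit of amino acid transporters, had 84.3, 96.2 and 63.1 CPM in 20% therapy livers, against 36.8, 37.2 and 40 CPM in 5% therapy livers (log2 fold change 1.10 ± 0.16, adjusted p = 9.34e-05). Its partner Slc7a11, which imports cystine, had 13, 13.5 and 5.41 CPM in 20% therapy livers, against 0.339, 1.31 and 0.383 CPM in 5% therapy livers (log2 fold change 3.96 ± 0.76, adjusted p = 0.000995). All 5 were higher in every 20% therapy liver. The whole list summed to 1434, 1601 and 1199 CPM with 20% therapy. With 5% therapy it summed to 1060, 1056 and 1330 CPM, so the doses overlapped. Among the hormone genes Gdf15, a stress cytokine, had 64.3, 51.6 and 44.8 CPM in 20% therapy livers, against 13.6, 22.4 and 17.5 CPM in 5% therapy livers (log2 fold change 1.58 ± 0.25, adjusted p = 0.000169). Fgf21, a hepatokine of nutrient stress, had 69, 60.1 and 38.7 CPM in 20% therapy livers, against 12.6, 17.6 and 19.5 CPM in 5% therapy livers (log2 fold change 1.75 ± 0.49, adjusted p = 0.0172). The Fgf21 call was lost without 20% therapy replicate 1 or 5% therapy replicate 1, with adjusted p up to 0.0777. Shmt2 fell (-0.49 ± 0.10), and Atf4, Asns and Chac1 did not pass (0.32, 0.71 and -0.15). The sequence TGATGNAA, a core of the element that ATF4 binds, was found in the windows of 8 of 19 of these genes (42.1%), against 4.51% of all genes, on either strand. These genes were listed for their known place in this response and counted whether called or not. The share therefore describes the list and not these livers, and no binding was measured. The chaperones of the endoplasmic reticulum did not move as a group, with 1 of 23 higher and 1 lower (median -0.12), although 6 were higher with library totals and 4 without 5% therapy replicate 3. Dnajb9 rose (0.81 ± 0.17) and Derl3 fell (-1.72 ± 0.49), while Hspa5, the main chaperone, had a log2 fold change of 0.38 (adjusted p = 0.126). Derl3 lost its call without 20% therapy replicate 1 or 5% therapy replicate 3 (adjusted p up to 0.134). Of 19 NRF2 antioxidant targets, 3 rose and 2 fell (median 0.23), against 7 and 5 with no filter on low counts and 4 lower without 20% therapy replicate 2. Hmox1, heme oxygenase, had 57.7, 50.6 and 37.6 CPM in 20% therapy livers, against 25.8, 29.8 and 16.2 CPM in 5% therapy livers (log2 fold change 1.03 ± 0.24, adjusted p = 0.00575). Catalase, Cat, had 1706, 2470 and 1827 CPM in 20% therapy livers, against 3765, 4011 and 4593 CPM in 5% therapy livers (log2 fold change -1.04 ± 0.16, adjusted p = 0.000125), and Sod2 also fell (-0.37 ± 0.09), a call lost with library totals (adjusted p = 0.384).

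Immediate early genes, which respond to growth and stress signals within minutes, rose in 12 of 21 cases with none lower and a median of 1.08. The list summed to 599 to 773 CPM with 20% therapy and 298 to 328 CPM with 5% therapy. Normal chow (306 to 668 CPM) and 5% prevention (426 to 671 CPM) overlapped 20% therapy. FAT-MASH without mannose (331 to 477 CPM) and 20% prevention (471 to 547 CPM) did not. Handling at collection was not tested. Klf6 had 69.2, 69.8 and 61.9 CPM in 20% therapy livers, against 17.7, 30.2 and 16.9 CPM in 5% therapy livers (log2 fold change 1.63 ± 0.24, adjusted p = 8.33e-05). Jun had 86.6, 71.7 and 101 CPM in 20% therapy livers, against 29.2, 42.2 and 22.6 CPM in 5% therapy livers (log2 fold change 1.46 ± 0.22, adjusted p = 0.000124), and Fosl2 had a log2 fold change of 0.96 ± 0.15. Of 23 genes of the NF-kappaB pathway and its targets, 14 rose and 1 fell, with a median of 0.74, and 9 rose without 5% therapy replicate 3. Relb, a subunit of the factor, had 18.8, 17.3 and 15.9 CPM in 20% therapy livers, against 7.5, 7 and 3.81 CPM in 5% therapy livers (log2 fold change 1.51 ± 0.23, adjusted p = 0.000136). Il1rn, the antagonist of the interleukin receptor, had 33.5, 24.2 and 24.1 CPM in 20% therapy livers, against 5.77, 9.1 and 3.1 CPM in 5% therapy livers (log2 fold change 2.19 ± 0.34, adjusted p = 0.000165). Nfkb2 and the inhibitor Tnfaip3 had log2 fold changes of 1.42 ± 0.23 and 1.75 ± 0.29. The doses did not overlap in any of these 7 genes.

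Chemokines rose in 7 of 20 cases and fell in 1 (median 1.30), with 11 higher with library totals and none lower without 20% therapy replicate 1 or 2 or 5% therapy replicate 2. Ccl2, which draws monocytes, had 13.3, 11.5 and 6.33 CPM in 20% therapy livers, against 1.02, 2.83 and 0.957 CPM in 5% therapy livers (log2 fold change 2.69 ± 0.49, adjusted p = 0.000613). Cxcl5, which draws neutrophils, had 10.8, 6.51 and 4.17 CPM in 20% therapy livers, against 0.272, 1.36 and 0.268 CPM in 5% therapy livers (log2 fold change 3.49 ± 0.75, adjusted p = 0.00255). Ccl9 and Cxcl14 had log2 fold changes of 1.23 ± 0.20 and 2.04 ± 0.41. Neutrophil and lymphocyte markers rose in 4 of 19 cases (median 0.33), all 4 known from neutrophils. S100a9 had 11.4, 12 and 8.16 CPM in 20% therapy livers, against 2.99, 5.91 and 3.21 CPM in 5% therapy livers (log2 fold change 1.38 ± 0.28, adjusted p = 0.00177), and S100a8, Cxcr2 and Csf3r had log2 fold changes of 1.17, 2.11 and 0.70. Without 5% therapy replicate 3, 5% therapy replicate 1 or 20% therapy replicate 2 only 1 of the 19 was higher, and without 20% therapy replicate 1 there were 2. In those fits the adjusted p reached 0.122 for S100a8, 0.0962 for Cxcr2 and 0.202 for Csf3r. The summed list gave 67.1, 63.7 and 54.1 CPM with 20% therapy, against 38.5, 62.5 and 42.5 CPM with 5% therapy, so the groups overlapped. Of 20 acute phase genes 4 rose and 7 fell (median -0.03), against 8 and 2 with library totals. Lcn2, lipocalin, had 245, 57.2 and 216 CPM in 20% therapy livers, against 17.5, 28.2 and 5.63 CPM in 5% therapy livers (log2 fold change 3.34 ± 0.53, adjusted p = 0.000178), and Steap4 had a log2 fold change of 1.29 ± 0.20. Saa4, which has near copies, had 105, 107 and 98.1 CPM in 20% therapy livers, against 297, 196 and 206 CPM in 5% therapy livers (log2 fold change -1.17 ± 0.15, adjusted p = 2.31e-05), and Crp fell too (-0.61 ± 0.11). Interferon response and MHC class II genes did not move as a group, with none of 25 higher and B2m alone lower (-0.53 ± 0.11, list median 0.16), counts that were the same with DESeq2, while 4 were higher and none lower with library totals.

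Markers of cholangiocytes, the cells of bile ducts, rose in 12 of 16 cases with none lower and a median of 1.52. Epcam, a surface protein of duct and progenitor cells, had 25.6, 6.16 and 35.4 CPM in 20% therapy livers, against 2.1, 4.4 and 3.98 CPM in 5% therapy livers (log2 fold change 2.67 ± 0.48, adjusted p = 0.000559). Spp1, osteopontin, had 486, 135 and 668 CPM in 20% therapy livers, against 90.1, 110 and 69.1 CPM in 5% therapy livers (log2 fold change 2.26 ± 0.44, adjusted p = 0.00108). Cldn7, a tight junction protein, had 10, 1.95 and 11.2 CPM in 20% therapy livers, against 1.15, 1.87 and 1.42 CPM in 5% therapy livers (log2 fold change 2.38 ± 0.44, adjusted p = 0.000813). Sox9, a duct transcription factor, had 26, 15.8 and 25.5 CPM in 20% therapy livers, against 11.9, 11.4 and 12 CPM in 5% therapy livers (log2 fold change 0.93 ± 0.20, adjusted p = 0.00236). In Epcam, Spp1 and Cldn7 the 20% therapy replicate 2 lay close to the 5% therapy livers and the other two replicates far above them. The list summed to 720, 280 and 960 CPM with 20% therapy, against 205, 248 and 181 CPM with 5% therapy. Leaving out 20% therapy replicate 3 or 5% therapy replicate 3 left 5 of the 16 higher, and leaving out 5% therapy replicate 1 left 7. The duct keratin Krt19 had a log2 fold change of 1.23 and did not pass (adjusted p = 0.0755).

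**Figure D2:**
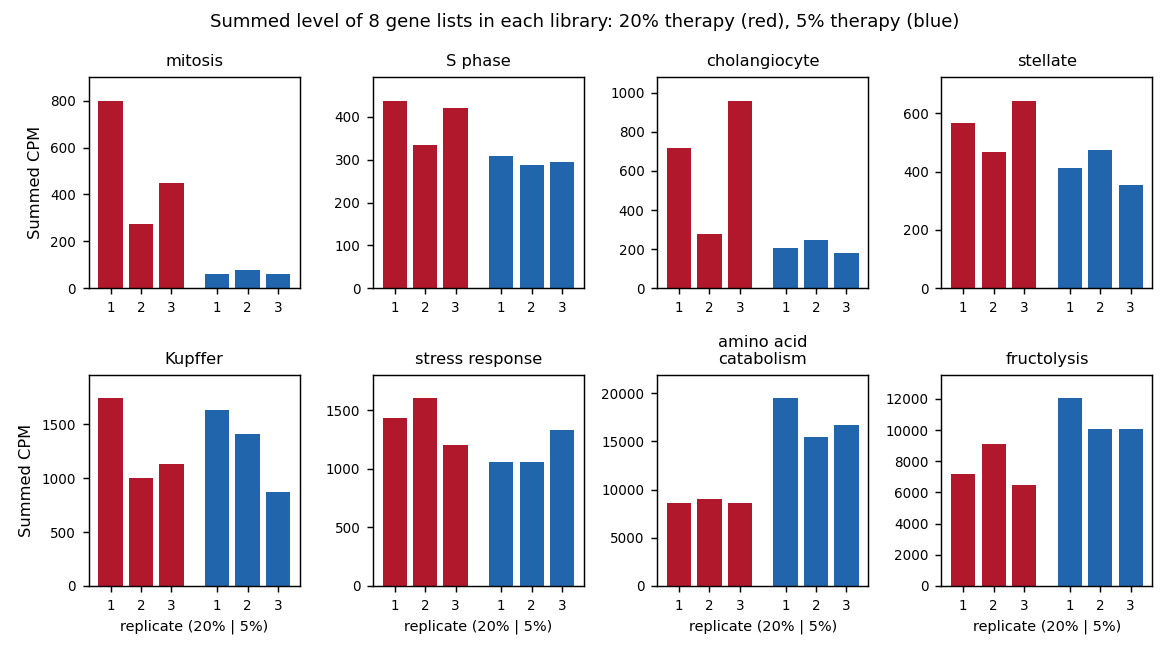
Summed TMM-scaled CPM (y axis, from 0) of 8 gene lists in each of the 6 libraries, 20% therapy in red on the left and 5% therapy in blue on the right. Mitotic transcripts reach 800, 273 and 447 CPM with 20% therapy against 60.1 to 76.4 CPM with 5% therapy. Amino acid catabolism does not overlap in the other direction, while the Kupffer cell, stellate cell and stress response lists overlap.

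Matrix genes moved in part. Of 27 interstitial matrix genes 10 rose and 1 fell, with a median of 0.88. Thbs1, thrombospondin, had 12.7, 10.9 and 19 CPM in 20% therapy livers, against 3.19, 6.29 and 2.01 CPM in 5% therapy livers (log2 fold change 1.90 ± 0.39, adjusted p = 0.00166). Col6a3 had 65.1, 28 and 91.2 CPM in 20% therapy livers, against 21, 21.7 and 17.4 CPM in 5% therapy livers (log2 fold change 1.62 ± 0.35, adjusted p = 0.00296), and Col8a1 a log2 fold change of 2.19 ± 0.57. Col1a1, the main fibrillar collagen of scars, had 90.2, 36.7 and 150 CPM in 20% therapy livers, against 38.4, 36.1 and 17.9 CPM in 5% therapy livers (log2 fold change 1.59 ± 0.53, adjusted p = 0.0448), with overlap between the doses, and its call was lost in 5 of the 6 fits that left out 1 therapy library, with adjusted p up to 0.246. Col8a1 lost its call without 20% therapy replicate 3 (adjusted p = 0.0916). Col5a3 fell (-0.66 ± 0.15). The count of higher matrix genes was 2 without 20% therapy replicate 3, 3 without 5% therapy replicate 3, 4 without 20% therapy replicate 1 and 6 without 5% therapy replicate 1. It was 18 with library totals and 20 with no filter on low counts. Of 18 basement membrane genes 8 rose and 1 fell (median 0.73), with 5 higher without 20% therapy replicate 1, 20% therapy replicate 3 or 5% therapy replicate 1. Nid1, which links laminin to collagen, had 92.6, 76.6 and 103 CPM in 20% therapy livers, against 30.1, 38.1 and 21.3 CPM in 5% therapy livers (log2 fold change 1.61 ± 0.19, adjusted p = 1.02e-05), and Lamc1 and Col4a1 had log2 fold changes of 0.85 ± 0.14 and 1.22 ± 0.23. Proteases of the matrix and their inhibitors rose in 7 of 21 cases (median 0.80), with 4 higher without 20% therapy replicate 3 or 5% therapy replicate 3 and 11 with library totals. Mmp7, matrilysin, known from duct cells, had 11.5, 1.89 and 11.3 CPM in 20% therapy livers, against 0.238, 0.758 and 0.21 CPM in 5% therapy livers (log2 fold change 4.35 ± 0.64, adjusted p = 8.81e-05). Adamts1 had 47.8, 47.4 and 43.3 CPM in 20% therapy livers, against 15.6, 20.4 and 10.2 CPM in 5% therapy livers (log2 fold change 1.59 ± 0.20, adjusted p = 1.64e-05). Plaur, the urokinase receptor, and Timp1, an inhibitor of matrix proteases, had log2 fold changes of 1.80 ± 0.34 and 2.30 ± 0.59. Timp1 lost its call without 20% therapy replicate 3 or 5% therapy replicate 3 (adjusted p up to 0.0522).

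Markers of stellate cells, the liver's matrix-producing cells, rose in 10 of 20 cases with none lower (median 0.57), and in 5, 5 and 4 without 20% therapy replicate 3, 5% therapy replicate 3 and 5% therapy replicate 1. Ccn2, a matricellular growth factor, had 21.8, 8.12 and 17.4 CPM in 20% therapy livers, against 4.85, 4.55 and 3.2 CPM in 5% therapy livers (log2 fold change 1.92 ± 0.43, adjusted p = 0.00353). Tgfb2 and the receptor Pdgfra had log2 fold changes of 1.54 ± 0.33 and 1.00 ± 0.24. Acta2, an actin that stellate cells make when activated, missed the threshold (1.02 ± 0.50, adjusted p = 0.184). The markers Lrat, Des, Reln and Colec11 summed to 148, 124 and 146 CPM with 20% therapy, against 129, 135 and 92.4 CPM with 5% therapy, so their sums overlapped. Singly, Lrat and Des rose without overlap (0.48 ± 0.16 and 0.70 ± 0.20, adjusted p = 0.0475 and 0.0207). Reln and Colec11 did not pass (0.34 ± 0.16 and -0.22 ± 0.14). Of 20 genes of lipid-associated macrophages 4 rose (20%, against 8.33% of all genes) and 1 fell (median 0.67). The 4 were Spp1, which is also in the cholangiocyte list, Cd9 (0.87 ± 0.14), Cd63 (0.92 ± 0.26) and Ly6c2 (1.31 ± 0.38). Those higher numbered 2 without 5% therapy replicate 3, 7 without 5% therapy replicate 2 and 11 with no filter on low counts. Cd63 lost its call without 20% therapy replicate 1 or 3 or 5% therapy replicate 3 (adjusted p up to 0.0872). The defining genes Trem2 and Gpnmb did not pass, Trem2 with 11.8, 12.2 and 21 CPM in 20% therapy livers, against 13.1, 16.4 and 5.24 CPM in 5% therapy livers (log2 fold change 0.38 ± 0.60, adjusted p = 0.743) and Gpnmb with an uncertain log2 fold change of -0.27 ± 1.02. Among 17 Kupffer cell markers none rose and Slc40a1, the iron exporter, fell (-0.66 ± 0.18, list median 0.09). Slc40a1 lost its call without 20% therapy replicate 3 or 5% therapy replicate 1 (adjusted p up to 0.0803). The list summed to 1740, 1002 and 1129 CPM with 20% therapy, against 1634, 1412 and 873 CPM with 5% therapy. Among 21 sinusoidal endothelial markers Wnt9b rose and Oit3 fell (0.91 ± 0.30 and -0.66 ± 0.16, list median 0.01), with 5 lower without 5% therapy replicate 3. Wnt9b lost its call in 5 of the 6 fits without 1 therapy library, all but that without 5% therapy replicate 3 (adjusted p up to 0.183). Red cell transcripts were lower with 20% therapy in 3 of 11 genes of blood and other tissues (median -0.75), Alas2, Hbb-bt and Hbb-bs (-1.10, -0.91 and -0.75), and the part of blood content in the other results was not tested. Hbb-bs lost its call without 20% therapy replicate 1 or 2 or 5% therapy replicate 1 or 2 (adjusted p up to 0.164), and also with the replicate block (0.0525) and library totals (0.133).

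Lists of hepatocyte work held more lower than higher genes. Amino acid catabolism was the broadest: 24 of 28 genes fell and none rose (median log2 fold change -0.87). Tdo2, the first enzyme of tryptophan breakdown, had 521, 629 and 458 CPM in 20% therapy livers, against 2160, 1833 and 1799 CPM in 5% therapy livers (log2 fold change -1.85 ± 0.18, adjusted p = 2.46e-06). Hpd of tyrosine breakdown had 554, 568 and 584 CPM in 20% therapy livers, against 1735, 1263 and 1399 CPM in 5% therapy livers (log2 fold change -1.37 ± 0.12, adjusted p = 1.08e-06). Prodh2 of hydroxyproline breakdown and Uroc1 of histidine breakdown had log2 fold changes of -1.24 ± 0.11 and -1.08 ± 0.11. Summed, the list gave 8620, 9041 and 8611 CPM with 20% therapy, against 19475, 15441 and 16730 CPM with 5% therapy, and 21 to 25 members were lower in every alternative run. Tat, Kmo, Bhmt and Bckdhb did not pass (0.06, -0.30, -0.33 and -0.07). Periportal and urea cycle genes followed, with 12 of 18 lower and Cdh1 higher (median -0.57). Sds, serine dehydratase, had 21.3, 11.4 and 11.8 CPM in 20% therapy livers, against 138, 48.3 and 111 CPM in 5% therapy livers (log2 fold change -2.74 ± 0.32, adjusted p = 8.93e-06), with 360 of its exonic bases shared with Plbd2 on the other strand. Hal, which breaks down histidine, had 88.5, 118 and 53.7 CPM in 20% therapy livers, against 571, 316 and 543 CPM in 5% therapy livers (log2 fold change -2.46 ± 0.25, adjusted p = 2.61e-06). Gls2, liver glutaminase, had 115, 121 and 89.4 CPM in 20% therapy livers, against 466, 288 and 363 CPM in 5% therapy livers (log2 fold change -1.78 ± 0.17, adjusted p = 2.34e-06). The urea cycle enzyme Otc had 238, 291 and 206 CPM in 20% therapy livers, against 673, 574 and 511 CPM in 5% therapy livers (log2 fold change -1.26 ± 0.13, adjusted p = 4.47e-06). No value of one dose reached the other in these 4 genes.

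**Figure D3:**
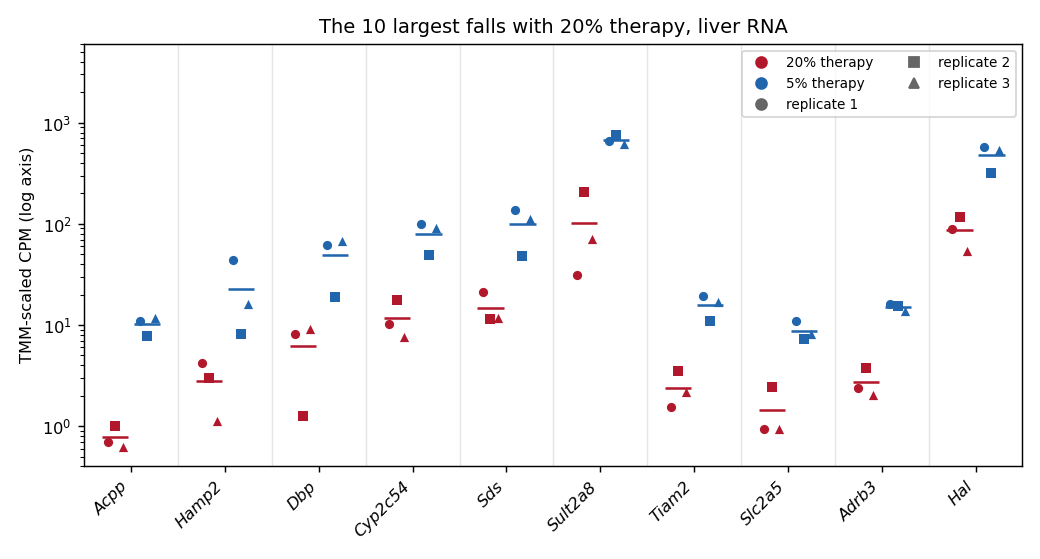
TMM-scaled CPM (y axis, log scale) of the 10 largest falls with 20% therapy, one symbol per library and a line at each group's mean, 20% therapy left of 5% therapy for each gene. All 20% therapy livers lie below all 5% therapy livers, a property for which the 10 were chosen, and Dbp and Sult2a8 spread most between the 20% therapy livers, Sult2a8 with 31.5, 207 and 70.6 CPM. Only genes with a mean of at least 5 CPM were eligible. Hsd3b5, with a larger fall (log2 fold change -4.38), lay below that mean.

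Secreted proteins fell too. Of 34 complement and coagulation genes 26 fell and none rose (median -0.50), and 14 fell with library totals. Kng1, kininogen, had 1257, 1304 and 1097 CPM in 20% therapy livers, against 2595, 2064 and 2643 CPM in 5% therapy livers, 2-fold lower with 20% therapy (adjusted p = 1.24e-05). F7, a clotting factor, had 45.7, 56.2 and 45.8 CPM in 20% therapy livers, against 117, 76.2 and 107 CPM in 5% therapy livers (log2 fold change -1.02 ± 0.15, adjusted p = 9.81e-05), and the complement protease C1s1 and the anticoagulant Proc had log2 fold changes of -0.72 ± 0.09 and -0.87 ± 0.11. Albumin, Alb, had 53201, 52899 and 46748 CPM in 20% therapy livers, against 81299, 68798 and 86670 CPM in 5% therapy livers (log2 fold change -0.63 ± 0.12, adjusted p = 0.00072). Apolipoproteins and lipoprotein secretion had 10 of 16 lower and none higher (median -0.66). Apoa2 had 3511, 3940 and 3449 CPM in 20% therapy livers, against 7053, 5810 and 8068 CPM in 5% therapy livers (log2 fold change -0.94 ± 0.13, adjusted p = 5.00e-05). Apoe, Apoh and Lcat had log2 fold changes of -0.86 ± 0.12, -1.03 ± 0.12 and -0.70 ± 0.10. Apob and Mttp, which build the lipoprotein particle, did not pass (-0.22 and -0.15), nor did Apoa1 (0.04).

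Enzymes of drug and toxin metabolism were lower in 13 of 20 cytochromes of the CYP2 and CYP3 families, with 1 higher (median -0.70). Cyp2e1, the cytochrome that activates carbon tetrachloride, had 1158, 1417 and 1689 CPM in 20% therapy livers, against 3902, 4098 and 3655 CPM in 5% therapy livers (log2 fold change -1.45 ± 0.17, adjusted p = 1.06e-05), 2.73-fold less with 20% therapy. Livers with FAT-MASH and no mannose had 4665 ± 443 CPM. Cyp2c50 had 54, 74.7 and 51.5 CPM in 20% therapy livers, against 337, 196 and 298 CPM in 5% therapy livers (log2 fold change -2.20 ± 0.22, adjusted p = 2.66e-06). Its near copy Cyp2c54 had 10.2, 17.6 and 7.6 CPM in 20% therapy livers, against 98.8, 48.8 and 90.9 CPM in 5% therapy livers (log2 fold change -2.75 ± 0.32, adjusted p = 1.01e-05), with reads that the counting could split between them. The 1 that rose was Cyp3a11 (0.64 ± 0.18), whereas Cyp3a25 fell (-1.12 ± 0.16). None of the 20 was higher without 20% therapy replicate 1 or 3 or 5% therapy replicate 1 or 2. Of 25 glutathione, glucuronide and sulfate transferases 14 fell and 2 rose (median -0.68). Sult2a8, a mouse bile acid sulfotransferase, had 31.5, 207 and 70.6 CPM in 20% therapy livers, against 655, 758 and 612 CPM in 5% therapy livers (log2 fold change -2.71 ± 0.41, adjusted p = 0.000106). The log2 fold changes of Ugt2b36, Ugt3a2 and Ugt1a6a were -1.18 ± 0.18, -0.84 ± 0.14 and -1.69 ± 0.24, and Ugt1a6a shares exons with other Ugt1a genes. The 2 that rose were Gstm2 and Gstm3 (1.20 ± 0.21 and 1.48 ± 0.33). Pericentral genes, which depend on Wnt signals around the central vein, had 4 of 18 lower and Tcf7 higher (median 0.03), with 2 lower without 20% therapy replicate 1. Those lower were Cyp2e1, Cyp1a2 (-0.88 ± 0.27), Rgn (-1.12 ± 0.14) and Tbx3 (-0.99 ± 0.25). Tbx3 lost its call without 20% therapy replicate 1 or 5% therapy replicate 2 (adjusted p up to 0.0621). Tcf7 lost its call without 20% therapy replicate 1 or 5% therapy replicate 1 or 3 (adjusted p up to 0.0583). Glul, glutamine synthetase and the classic pericentral marker, had 333, 575 and 379 CPM in 20% therapy livers, against 296, 477 and 411 CPM in 5% therapy livers (log2 fold change 0.12 ± 0.18, adjusted p = 0.731), which overlapped.

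Bile acid genes were lower in 14 of 23 cases with none higher (median -0.64), in 7 with library totals and in 9 without 20% therapy replicate 1. Slc10a1, the importer of bile acids from blood, had 135, 225 and 145 CPM in 20% therapy livers, against 586, 388 and 460 CPM in 5% therapy livers (log2 fold change -1.50 ± 0.17, adjusted p = 7.03e-06). Nr1h4, the bile acid receptor, had 77.3, 81.9 and 79.6 CPM in 20% therapy livers, against 163, 137 and 135 CPM in 5% therapy livers (log2 fold change -0.87 ± 0.10, adjusted p = 9.33e-06). Slc27a5, which activates bile acids, had 339, 475 and 330 CPM in 20% therapy livers, against 1112, 915 and 1064 CPM in 5% therapy livers (log2 fold change -1.43 ± 0.13, adjusted p = 1.08e-06). Akr1d1 fell as well (-1.26 ± 0.16). Cyp7a1, the rate-limiting enzyme of their synthesis, had 66.1, 61.2 and 79.4 CPM in 20% therapy livers, against 123, 157 and 91.6 CPM in 5% therapy livers (log2 fold change -0.85 ± 0.29, adjusted p = 0.0505), without overlap but just outside the threshold. Of 20 hepatocyte transcription factors 9 fell and Foxa3 rose (0.70 ± 0.14, list median -0.35). Cebpa, a factor of differentiated hepatocytes, had 254, 315 and 345 CPM in 20% therapy livers, against 765, 657 and 758 CPM in 5% therapy livers (log2 fold change -1.25 ± 0.14, adjusted p = 4.65e-06). Hnf4a, Esrra and Nr5a2 had log2 fold changes of -0.44 ± 0.11, -0.66 ± 0.12 and -0.50 ± 0.10, while Foxa1 and Foxa2 did not pass (-0.05 and -0.26). With library totals 5 of the 20 were lower. Growth hormone and male-biased genes had 7 of 20 lower and none higher (median -0.73), and 14 lower with no filter on low counts. Ghr, the growth hormone receptor, had 253, 300 and 287 CPM in 20% therapy livers, against 562, 513 and 471 CPM in 5% therapy livers (log2 fold change -0.88 ± 0.11, adjusted p = 1.68e-05). Hsd3b5, a male-biased steroid dehydrogenase, had 0.123, 0.608 and 0.627 CPM in 20% therapy livers, against 4.96, 15.9 and 7.67 CPM in 5% therapy livers (log2 fold change -4.38 ± 0.63, adjusted p = 7.24e-05). Livers on normal chow had 320 ± 33.3 CPM. Cyp2d9 and Igfals, a carrier of insulin-like growth factor, had log2 fold changes of -1.66 ± 0.25 and -1.29 ± 0.20.

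Fructose enters hepatocytes through transporters and is phosphorylated by ketohexokinase. Of 13 genes of this route 9 fell and none rose (median -0.60), and 5 fell with library totals. Slc2a5, the fructose transporter (ENSMUSG00000028976.11, chr4:150203740-150228626, plus strand, GRCm39), had 0.942, 2.45 and 0.941 CPM in 20% therapy livers, against 11, 7.28 and 8.19 CPM in 5% therapy livers (log2 fold change -2.61 ± 0.37, adjusted p = 5.91e-05). Khk had 356, 490 and 336 CPM in 20% therapy livers, against 900, 567 and 698 CPM in 5% therapy livers (log2 fold change -0.87 ± 0.17, adjusted p = 0.00124). Sord, which makes fructose from sorbitol, had 672, 727 and 639 CPM in 20% therapy livers, against 1285, 1198 and 1254 CPM in 5% therapy livers (log2 fold change -0.88 ± 0.09, adjusted p = 4.57e-06). The transporters Slc2a2 and Slc2a9 and the glucokinase regulator Gckr had log2 fold changes of -0.60 ± 0.14, -1.01 ± 0.10 and -1.12 ± 0.13. Tkfc, triokinase, did not pass (-0.30 ± 0.15).

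Few genes that handle mannose itself were called. Of 16 genes from mannose to GDP-mannose and GDP-fucose 2 rose and 1 fell (median -0.01), close to the 8.33% and 9.33% of all genes. The 2 became 1 without 20% therapy replicate 2 or 5% therapy replicate 1 or 2, and 5 with library totals. Mpi had 17.6, 13 and 14.5 CPM in 20% therapy livers, against 16.5, 13.4 and 12.7 CPM in 5% therapy livers (log2 fold change 0.08 ± 0.15, adjusted p = 0.773), which overlapped. Pmm2 had 44.3, 41.8 and 42.9 CPM in 20% therapy livers, against 61, 49.7 and 59.8 CPM in 5% therapy livers (log2 fold change -0.40 ± 0.10, adjusted p = 0.00562), and its fall was lost with library totals (adjusted p = 0.355). Pmm1 had 2.42, 8.73 and 2.44 CPM in 20% therapy livers, against 1.66, 2.22 and 2.05 CPM in 5% therapy livers (log2 fold change 1.19 ± 0.42, adjusted p = 0.0599), with 20% therapy replicate 2 far above the rest. Gmppb, which makes GDP-mannose, and Slc35c1, the GDP-fucose carrier, had log2 fold changes of 0.63 ± 0.19 and 0.59 ± 0.14, and Gmppb shares 937 exonic bases with Rnf123. Gmppb lost its call without 20% therapy replicate 1 or 2 or 5% therapy replicate 1 or 2 (adjusted p up to 0.12). Of 28 genes that build and trim N-glycans 3 rose and 1 fell (median 0.09): Alg2 (0.56 ± 0.13), Alg8 (0.80 ± 0.21), Stt3b (0.27 ± 0.09) and Man1a (-0.38 ± 0.12). With library totals 16 of the 28 were higher, and 1 was higher without 20% therapy replicate 1 or 5% therapy replicate 2. Alg8 lost its call without 20% therapy replicate 1 or 5% therapy replicate 2 (adjusted p up to 0.0651). Stt3b lost its call in 5 of the 6 fits without 1 therapy library, all but that without 20% therapy replicate 2 (adjusted p up to 0.199). Man1a lost its call in 5 of the 6 fits without 1 therapy library, all but that without 20% therapy replicate 2 (adjusted p up to 0.129), and with library totals (0.506).

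Glucose metabolism moved mostly down. Of 14 gluconeogenesis genes 8 fell and 2 rose (median -0.61). Fbp1, fructose bisphosphatase, had 668, 666 and 681 CPM in 20% therapy livers, against 1253, 1004 and 1019 CPM in 5% therapy livers (log2 fold change -0.70 ± 0.13, adjusted p = 0.000748). Slc37a4, the glucose 6-phosphate carrier, and Lipc, a lipase gene listed with them, had log2 fold changes of -1.09 ± 0.21 and -0.96 ± 0.10. Pck1, the cytosolic carboxykinase, did not pass (0.05 ± 0.25), whereas the mitochondrial form Pck2 had 35.7, 28.3 and 34.3 CPM in 20% therapy livers, against 16.6, 16.3 and 19.3 CPM in 5% therapy livers (log2 fold change 0.91 ± 0.13, adjusted p = 5.32e-05). The other rise was Igfbp1 (3.05 ± 0.70). Glycogen genes fell in 7 of 13 cases with none higher (median -0.56), and in 3 with library totals. Gys2, glycogen synthase, had 86.4, 104 and 91.2 CPM in 20% therapy livers, against 186, 147 and 176 CPM in 5% therapy livers (log2 fold change -0.85 ± 0.11, adjusted p = 2.56e-05). Ppp1r3c, which targets a phosphatase to glycogen, had 29.6, 49.3 and 31.4 CPM in 20% therapy livers, against 112, 111 and 97.9 CPM in 5% therapy livers (log2 fold change -1.54 ± 0.21, adjusted p = 3.81e-05). Pygl and Pgm1 fell too (-0.77 ± 0.12 and -0.49 ± 0.09). Of 12 glycolysis genes of proliferating cells Pfkp and Slc2a1 rose (0.79 ± 0.21 and 0.68 ± 0.21, list median 0.49), and Pkm did not pass (0.55 ± 0.22). With library totals 7 genes of that list were higher, but none without 20% therapy replicate 2 and 1 without 20% therapy replicate 1 or 5% therapy replicate 1 or 3. Pfkp lost its call without 20% therapy replicate 2 or 5% therapy replicate 3 (adjusted p up to 0.0939). Slc2a1 lost its call without 20% therapy replicate 1 or 2 or 5% therapy replicate 1 or 2 (adjusted p up to 0.146). Of 8 pentose phosphate genes Pgd and Rpia rose and Tkt fell (0.65 ± 0.18, 0.78 ± 0.23 and -0.43 ± 0.14, list median -0.05). None was higher without 20% therapy replicate 2 and 1 in each fit without 20% therapy replicate 1 or a 5% therapy library. Pgd lost its call without 20% therapy replicate 2 or 5% therapy replicate 1 (adjusted p up to 0.0662). Rpia lost its call without 20% therapy replicate 1 or 2 or 5% therapy replicate 2 or 3 (adjusted p up to 0.135). Tkt lost its call without 20% therapy replicate 1 or 3 or 5% therapy replicate 1 or 3 (adjusted p up to 0.212). Of 10 genes of ChREBP, a sugar-sensing factor, and its targets 3 fell and none rose (median -0.22), but 1 was lower without 5% therapy replicate 1 or with library totals and 2 were higher without 20% therapy replicate 2. Mlxipl, which encodes the factor, had 200, 243 and 193 CPM in 20% therapy livers, against 480, 402 and 619 CPM in 5% therapy livers (log2 fold change -1.24 ± 0.20, adjusted p = 0.000223), and its targets Pklr and Gpd1 had log2 fold changes of -0.74 ± 0.21 and -0.38 ± 0.13. Pklr lost its call without 20% therapy replicate 1 or 3 or 5% therapy replicate 1 (adjusted p up to 0.126). Gpd1 lost its call without 20% therapy replicate 1 or 2 or 5% therapy replicate 1 or 3 (adjusted p up to 0.225), and also with relative log expression factors (0.054), the replicate block (0.0568) and library totals (0.582).

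Most genes of the lipid lists did not pass. De novo lipogenesis had 4 of 20 lower and none higher (median -0.09), with 2 lower without 20% therapy replicate 1, 2 or 3 or 5% therapy replicate 1 and 1 with library totals. Fasn had 1123, 1373 and 1301 CPM in 20% therapy livers, against 1986, 1113 and 1192 CPM in 5% therapy livers (log2 fold change -0.18 ± 0.29, adjusted p = 0.75), and Scd1, the most abundant of the list, had a log2 fold change of -0.12 ± 0.19. Srebf1, the sterol-regulated factor of the route, had 545, 402 and 492 CPM in 20% therapy livers, against 1666, 643 and 691 CPM in 5% therapy livers (log2 fold change -1.06 ± 0.31, adjusted p = 0.0236). Srebf1 lost its call without 20% therapy replicate 2 or 3 or 5% therapy replicate 1 (adjusted p up to 0.271), and also with library totals (0.0792) and the 6 therapy libraries alone (0.0559). Dgat2, the last step of triglyceride synthesis, had 234, 245 and 218 CPM in 20% therapy livers, against 519, 344 and 426 CPM in 5% therapy livers (log2 fold change -0.89 ± 0.12, adjusted p = 5.30e-05), and Gpam and Agpat2 had log2 fold changes of -0.44 ± 0.14 and -0.49 ± 0.13. Gpam lost its call in 5 of the 6 fits without 1 therapy library, all but that without 5% therapy replicate 1 (adjusted p up to 0.133). Agpat2 lost its call without 20% therapy replicate 1 or 5% therapy replicate 1 (adjusted p up to 0.102). Of 18 genes of the lipid droplet and fat uptake 2 rose and 2 fell (median 0.03), close to the 8.33% and 9.33% of all genes. Cidec, a droplet fusion protein, had 68.9, 103 and 96.9 CPM in 20% therapy livers, against 4.41, 25 and 7.44 CPM in 5% therapy livers (log2 fold change 2.86 ± 0.50, adjusted p = 0.000461). Plin2, the coat protein of droplets, had 1214, 1838 and 1374 CPM in 20% therapy livers, against 616, 1032 and 669 CPM in 5% therapy livers (log2 fold change 0.93 ± 0.19, adjusted p = 0.00195). The 2 that fell were the fatty acid carriers Slc27a2 and Slc27a5 (-0.60 ± 0.10 and -1.43 ± 0.13). Fatty acid oxidation had 3 of 24 higher and 5 lower (median -0.20), with 2 or 3 lower in 5 of the 6 fits that left out 1 therapy library, and with 1 higher without 20% therapy replicate 1 and none without 5% therapy replicate 1. With library totals 5 were higher and 2 lower. Acaa2 and Acot1 had log2 fold changes of -0.54 ± 0.09 and 0.81 ± 0.22. Acot1 lost its call without 20% therapy replicate 1 or 5% therapy replicate 1 (adjusted p up to 0.0758). Cholesterol synthesis had 2 of 24 higher and 4 lower (median 0.14), with 2 lower without 20% therapy replicate 3 or 5% therapy replicate 3 and 9 higher and 1 lower with library totals. Those higher numbered 4 without 5% therapy replicate 3 and 1 without 20% therapy replicate 3 or 5% therapy replicate 1. Sqle, squalene epoxidase, had 16, 19.4 and 17 CPM in 20% therapy livers, against 6.35, 9.6 and 9.05 CPM in 5% therapy livers (log2 fold change 1.06 ± 0.24, adjusted p = 0.00425), while Fdft1, Stard4 and Insig1 fell (-0.63 ± 0.12, -0.60 ± 0.13 and -0.80 ± 0.22). Fdft1 shares 774 exonic bases with Ctsb on the other strand, which had a mean of 37901 counts against 3069 for Fdft1. Insig1 lost its call without 20% therapy replicate 2 or 3 or 5% therapy replicate 3 (adjusted p up to 0.154).

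Of 23 glucocorticoid-responsive and circadian genes 3 rose and 7 fell (median -0.12). Dbp, a clock output factor, had 8.19, 1.26 and 9.08 CPM in 20% therapy livers, against 61.3, 19 and 68 CPM in 5% therapy livers (log2 fold change -2.99 ± 0.76, adjusted p = 0.00931), and 539 of its exonic bases are shared with Sphk2. Tef had 40.1, 18.7 and 37.2 CPM in 20% therapy livers, against 133, 67.3 and 125 CPM in 5% therapy livers (log2 fold change -1.76 ± 0.29, adjusted p = 0.000296), and Hlf and Cry2 had log2 fold changes of -1.05 ± 0.16 and -1.06 ± 0.19. Npas2, Mt1 and Lcn2 rose (1.35 ± 0.29, 1.57 ± 0.40 and 3.34 ± 0.53), Arntl did not pass (0.60), and the hour of collection was not tested. Of 31 nuclear genes of the respiratory chain and mitochondrial ribosome 16 fell and none rose (median -0.30), but 1 fell with library totals, 8 without 20% therapy replicate 1 and 10 without 5% therapy replicate 1. Sdhb, a subunit of succinate dehydrogenase, had 148, 158 and 148 CPM in 20% therapy livers, against 237, 208 and 215 CPM in 5% therapy livers (log2 fold change -0.54 ± 0.09, adjusted p = 0.000325), and Ndufa9, Sdhd and Ndufv1 had log2 fold changes of -0.44, -0.44 and -0.46.

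Several of the largest changes were in genes of no list. Vmn2r3, named as a vomeronasal receptor gene (ENSMUSG00000091572.10, chr3:64164636-64197130, minus strand, GRCm39), had 25, 13.6 and 9.32 CPM in 20% therapy livers, against 0, 0.556 and 0.765 CPM in 5% therapy livers (log2 fold change 5.06 ± 0.69, adjusted p = 7.06e-05). Acpp, an acid phosphatase gene, had 0.696, 0.998 and 0.627 CPM in 20% therapy livers, against 11, 7.86 and 11.8 CPM in 5% therapy livers (log2 fold change -3.73 ± 0.24, adjusted p = 6.57e-08). Hamp2, a hepcidin gene with a near copy, had 4.24, 3.02 and 1.13 CPM in 20% therapy livers, against 44, 8.24 and 16 CPM in 5% therapy livers (log2 fold change -3.02 ± 0.49, adjusted p = 0.00024). Both falls had no overlap, although Hamp2 varied widely among 5% therapy livers. Tiam2, an exchange factor for the GTPase Rac, had 1.54, 3.52 and 2.16 CPM in 20% therapy livers, against 19.4, 10.9 and 16.7 CPM in 5% therapy livers (log2 fold change -2.71 ± 0.24, adjusted p = 1.19e-06). Adrb3, an adrenergic receptor gene that shares 839 exonic bases with Gm45470, had 2.4, 3.78 and 2.01 CPM in 20% therapy livers, against 16.3, 15.4 and 13.8 CPM in 5% therapy livers (log2 fold change -2.48 ± 0.29, adjusted p = 1.02e-05).

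**Figure D4:**
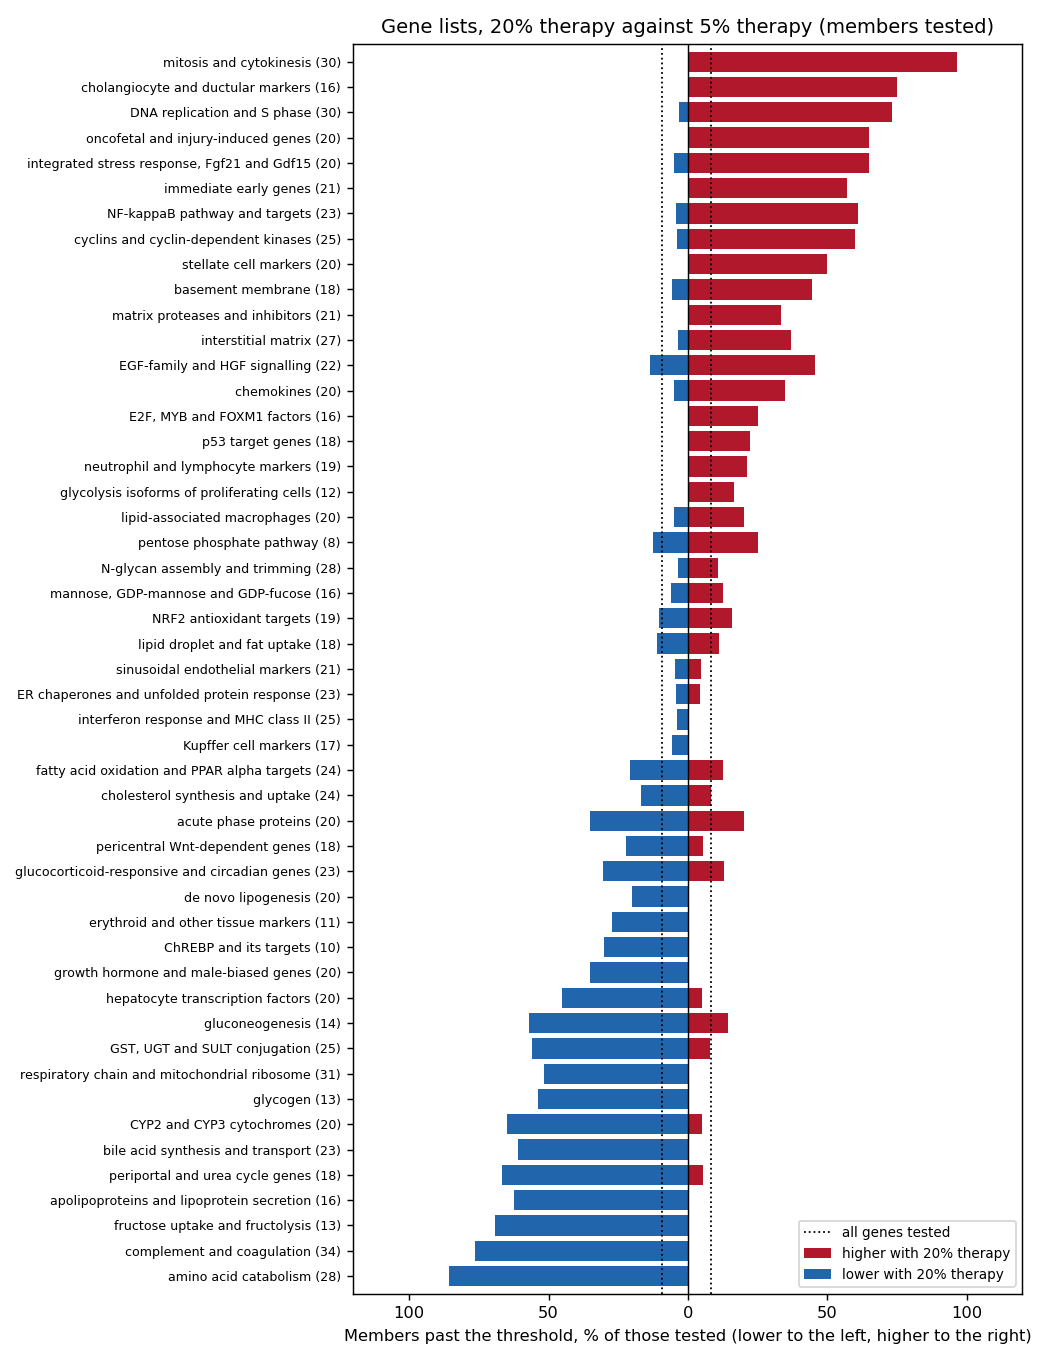
Share of the tested members of each of the 49 gene lists past the threshold (x axis, %), lower with 20% therapy to the left in blue and higher to the right in red, with the number tested in brackets and dotted lines at the 9.33% and 8.33% of all genes tested. Mitosis (29 of 30 higher) stands at one end and amino acid catabolism (24 of 28 lower) at the other, while Kupffer cell, interferon and endoplasmic reticulum chaperone lists lie near 0.

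The same dose step was present under prevention, in other mice, which allowed a test of whether the dose difference differed between therapy and prevention. Therapy had both a later start and a shorter course of mannose than prevention. These cannot be told apart here, and the word timing stands for both together. Between 20% prevention and 5% prevention livers 87 genes (0.445%) were called, 21 higher and 66 lower. All 66 genes called under both timings had the same direction, which is 1.91% of the therapy calls and 75.9% of the prevention calls. That count of prevention calls was unstable, with 0 to 107 higher and 0 to 72 lower when 1 of the 6 prevention libraries was left out, 0 higher and 2 lower without 5% prevention replicate 3 and 1 higher and 0 lower without 20% prevention replicate 2. The difference between the 2 dose differences, tested in the same edgeR fit, passed the threshold for 424 genes (2.17%), 196 positive and 228 negative. Library totals turned the balance, with 601 positive and 121 negative. DESeq2 gave 466 and 587, voom 458 and 585, and no filter on low counts 678 and 686. The count was carried in part by single libraries: without 20% therapy replicate 1 there were 59 positive and 60 negative genes, without 20% therapy replicate 3 131 and 141, without 5% therapy replicate 1 91 and 127, and without 5% therapy replicate 3 88 and 97. Of the prevention libraries, leaving out 20% prevention replicate 1 gave 69 and 60, 5% prevention replicate 1 gave 38 and 34, and 5% prevention replicate 3 gave 116 and 156.

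Of the 30 mitotic genes, 21 had a larger dose difference under therapy than under prevention past the threshold, and the list's median log2 fold change was 3.86 under therapy and 1.13 under prevention. The 21 became 1 without 20% therapy replicate 1, 2 without 5% prevention replicate 1, 7 without 20% prevention replicate 1, 9 without 5% therapy replicate 1, 11 without 5% therapy replicate 3 or 5% prevention replicate 3, 13 without 20% prevention replicate 2 and 10 with all 25 libraries. Cdc20 averaged 41.8 ± 24.2 CPM in 20% therapy livers and 1.81 ± 1.04 CPM in 5% therapy livers, against 15.1 ± 1.16 CPM with 20% prevention and 5.48 ± 2.52 CPM with 5% prevention (SD, n = 3 each; difference 3.05 ± 0.63 on the log2 scale, adjusted p = 0.0176). Mki67 averaged 55.9 ± 29.3 CPM in 20% therapy livers and 3.91 ± 2.69 CPM in 5% therapy livers, against 23.6 ± 2.07 CPM with 20% prevention and 9.94 ± 3.35 CPM with 5% prevention (difference 2.59 ± 0.64 on the log2 scale, adjusted p = 0.04). Cdc20 lost its call without 20% therapy replicate 1 or 5% prevention replicate 1 (adjusted p up to 0.0636). Mki67 lost its call in 9 of the 12 fits that left out 1 library (adjusted p up to 0.14), and also with the replicate block (0.0671) and all 25 libraries (0.0626). In both genes the mean of 20% prevention livers lay below that of 20% therapy livers and the mean of 5% prevention livers above that of 5% therapy livers, without a test of those pairs. Of the replication genes 10 of 30 passed, of the oncofetal genes 8 of 20, and of the cyclin list 6 of 25. Leaving out 1 library gave 2 to 12, 5 to 11 and 2 to 7 in these lists, lowest in each without 5% prevention replicate 1. The replication list was as low without 20% therapy replicate 1. Ccnd1 averaged 178 ± 45.2 CPM in 20% therapy livers and 23.3 ± 5.87 CPM in 5% therapy livers, against 140 ± 18.3 CPM with 20% prevention and 67.6 ± 27.2 CPM with 5% prevention (difference 1.88 ± 0.39 on the log2 scale, adjusted p = 0.0163). Ccnd1 lost its call without 20% prevention replicate 1 or 5% prevention replicate 1 (adjusted p up to 0.0587).

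Among the lists of hepatocyte functions 7 of 28 genes passed in amino acid catabolism, 7 of 23 in the bile acid list, 6 of 20 cytochromes and 5 of 20 transcription factors. Leaving out 1 library gave 1 to 10, 2 to 9, 3 to 8 and 0 to 6, lowest in each without 5% prevention replicate 1. The amino acid, bile acid and transcription factor lists were as low without 20% therapy replicate 1. The amino acid and bile acid lists were also as low without 20% prevention replicate 1. Tdo2 averaged 536 ± 86.3 CPM in 20% therapy livers and 1931 ± 199 CPM in 5% therapy livers, against 1237 ± 286 CPM with 20% prevention and 1228 ± 321 CPM with 5% prevention (difference -1.86 ± 0.25 on the log2 scale, adjusted p = 0.00242). Under prevention its log2 fold change was 0.01 ± 0.18. Cyp7a1 averaged 68.9 ± 9.43 CPM in 20% therapy livers and 124 ± 32.5 CPM in 5% therapy livers, against 122 ± 42.1 CPM with 20% prevention and 33.5 ± 7 CPM with 5% prevention (difference -2.72 ± 0.42 on the log2 scale, adjusted p = 0.00428), with the dose order turned round between the timings. Cyp2c54 and Etnppl, which breaks down phosphoethanolamine, were the other large negative differences (-2.36 and -2.20). Etnppl lost its call without 20% prevention replicate 1 or 5% prevention replicate 1 (adjusted p up to 0.0585). No member passed in the cholangiocyte (16), stellate (20), interstitial matrix (27), Kupffer (17) and mannose (16) lists, and in the stress response list Gdf15 alone did (difference 1.37 ± 0.35 on the log2 scale, adjusted p = 0.0438). Gdf15 lost its call in 9 of the 12 fits that left out 1 library (adjusted p up to 0.146), and also with all 25 libraries (0.0861). In fits that left out 1 library up to 6 cholangiocyte, 3 stellate, 9 matrix and 1 Kupffer genes passed. A missed threshold does not show that those dose differences were alike.

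**Figure D5:**
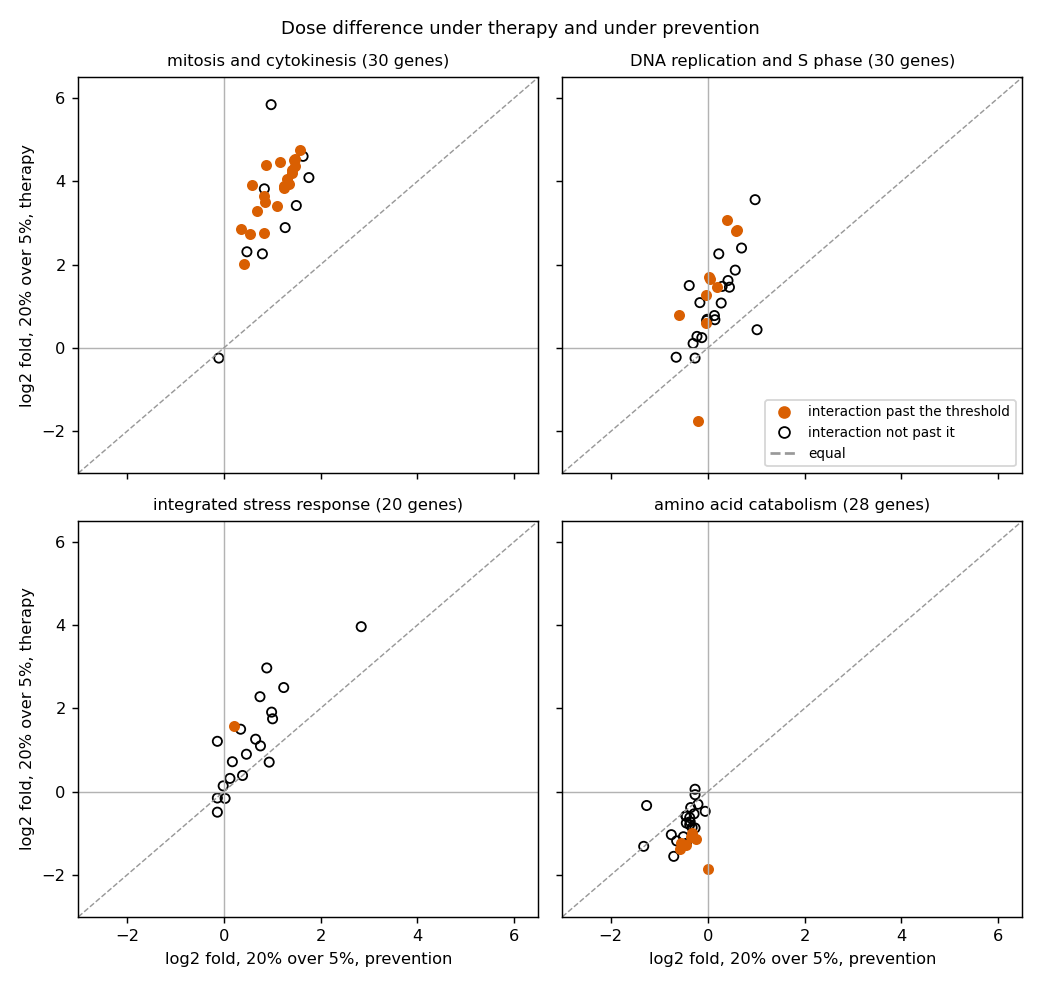
Log2 fold change of 20% over 5% mannose under therapy (y axis) against that under prevention (x axis) for the genes of 4 lists, one point per gene, orange where the difference between the timings passed the threshold, with a dashed line where both are equal. Of 30 mitosis genes 29 lie above the line and 21 are orange, of 28 amino acid genes 24 lie below it and 7 are orange, and of 20 stress response genes 1 is orange.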

How the data were processed

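Poly-A RNA of whole liver was sequenced, 1 library per mouse. The authors deposited counts of reads per gene, made with STAR and featureCounts on GRCm39, per the submitters' processing notes (featureCounts 2.0.6), while the file header names featureCounts 2.0.1 with GENCODE M31. The header's command holds no strand option and no option to count multi-mapping reads, so reads of overlapping genes cannot be told apart by strand and near copies are uncertain. Mitochondrial genes hold 0 counts. A gene symbol was found for 52073 of 56980 gene IDs in a GENCODE M21 table, and 135 IDs share one. The depth limits low genes most: a value of 0 allows up to 3 counts per library, counting error only.

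The 18 libraries of the batch that holds both therapy groups were fitted together in R 4.3.3 with edgeR 4.0.16 (filterByExpr, TMM, quasi-likelihood test, Benjamini-Hochberg adjustment over 19571 genes, threshold 0.05), which was first tested on simulated counts. All adjusted p-values are from this fit unless another setting is named. Contrasts were 20% against 5% under therapy, the same under prevention, and their difference (the interaction). Alternatives were DESeq2 1.42.0, voom with sample weights (limma 3.58.1), other size factors, library totals, no filter, other sets of libraries, the replicate block and leaving out each library. The members of the comparison and the 49 lists (986 genes) were chosen with earlier results of these data known, so the counts of a list are a description.

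Genes were named by rule: 31 key genes; the 10 largest rises and falls with no overlap and a mean of at least 5 CPM; up to 4 members of each list with the smallest p; and the 3 largest interactions each way. Members named beside these because they moved against their list or did not pass were chosen after their values were seen. Lin54, Aldoa, Ddit3 and Atp5po were not found by symbol and are not reported. Some other genes that the rule names are not reported here. Replicates of a therapy group differed by at least 29.6 times the sampling noise (chi-square per degree of freedom), so none was a repeated library.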

Additional observations from a re-analysis of the deposited data

Results flagged for a closer look

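The dose difference under therapy was set against that under prevention for every gene in the edgeR fit, and it differed past the threshold for 424 genes, 196 positive and 228 negative. A positive value below is a log2 dose difference that was larger (more toward 20% mannose) under therapy. Among the 220 named genes 32 were positive and 37 negative, while 2.17% of all genes tested were called. Many were named for a small p or a large change under therapy, which is part of this difference. That choice favours calls among them, so their count is no result about the named genes. Of the 69, 24 kept the call in every fit that left out 1 library, 45 lost it without 5% prevention replicate 1, 40 without 20% therapy replicate 1 and 33 without 20% prevention replicate 1. No cause was tested.

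Genes of the cell cycle had the highest values as a group. They were Ccnb1 3.30, Tpx2 3.32, Hmmr 3.16, Ccnb2 3.14, Iqgap3 3.10, Ube2c 3.08, Cdc20 3.05, Knstrn 2.89, Ect2 2.65, Mybl1 2.63, Mki67 2.59, Mcm5 2.23, Uhrf1 2.22, Ccnd1 1.88, Cdk1 1.84 and Mcm6 1.69, with Btg2 at 2.08 and Mcm10 at -1.55. Tubulin and injury genes followed, with Tubb2b 2.30, Tubb2a 1.72, Tubb6 1.42 and Anxa5 1.28, and the receptor Tnfrsf12a 2.10.

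Single inflammatory, stress and matrix genes were positive too: Mmp7 3.89, Lcn2 2.80, Tnfaip3 1.61, Ccl9 1.39, Gdf15 1.37, Adamts1 1.11 and Nid1 1.04. Calls of either sign numbered 1 of 23 NF-kappaB, 1 of 20 chemokine, 1 of 20 stress response and 2 of 20 acute phase genes. They numbered 1 of 18 basement membrane, 2 of 21 protease and 0 of 27 interstitial matrix genes. The share of all genes was 2.17%. Adamts1 lost its call in 10 of the 12 fits that left out 1 library, Gdf15 in 9. Lcn2, Tnfaip3 and Nid1 lost theirs in 8, Mmp7 in 5 and Ccl9 in 0. Vmn2r3 4.43, Chrna4 3.45, a nicotinic receptor subunit, and Sqle 1.97 of cholesterol synthesis were the other positive genes. Chrna4 lost its call in 10 of the 12 such fits (adjusted p up to 0.123), and also with the replicate block (0.0539). Its own change under therapy did not pass (1.17, adjusted p = 0.21).

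Genes of hepatocyte metabolism were negative. The cytochromes and conjugating enzymes were Cyp7a1 -2.72, Cyp2c54 -2.36, Cyp2c50 -2.00, Ugt1a6a -1.89, Cyp2d9 -1.37, Cyp2e1 -1.25, Cyp3a25 -1.22, Ugt2b36 -1.08 and Ugt3a2 -0.78. Amino acid genes were Tdo2 -1.86, Hal -1.71, Hpd -0.79 and Prodh2 -0.69. Etnppl of phosphoethanolamine breakdown had -2.20. Sugar and glycogen genes were Ppp1r3c -1.42, Slc2a9 -0.88, Sord -0.72 and Gys2 -0.71. Bile acid and lipid genes were Slc27a5 -1.20, Slc10a1 -1.02, Dgat2 -0.82, Nr1h4 -0.67, Lipc -0.61 and Slc27a2 -0.56.

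Secreted proteins were Igfals -1.10, Saa4 -1.05, Apoh -0.79, Kng1 -0.75 and Lcat -0.68. Transcription factors and clock genes were Tbx3 -1.69, Tef -1.69, Cry2 -1.07, Hlf -1.02 and Cebpa -0.94. Acpp -2.46 and Tiam2 -2.00 completed the negative genes.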

How the results depend on the processing

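Library totals gave 4730 higher and 897 lower genes under therapy, and leaving out 1 therapy library gave 1065 to 1568 higher and 1236 to 1740 lower. DESeq2, voom, no filter, relative log expression factors, the 6 therapy libraries alone and all 25 libraries stayed within 1.5 times of the main counts. Under prevention, higher genes numbered 288 with DESeq2, 186 with voom, 410 with no filter, 90 with library totals and 34 with all 25 libraries, and lower genes 409 with DESeq2, 214 with voom and 409 with no filter. Leaving out 1 prevention library gave 0 to 107 higher and 0 to 72 lower. For the difference between timings, positive genes numbered 466 with DESeq2, 458 with voom, 678 with no filter, 601 with library totals and 124 with all 25 libraries. Negative genes numbered 587 with DESeq2, 585 with voom, 686 with no filter, 121 with library totals and 143 with the 12 mannose libraries alone. Leaving out 1 library gave 38 to 264 positive and 34 to 319 negative genes. The causes were not tested.

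Replicate numbers did not pair the therapy livers: same-numbered livers correlated at 0.042, -0.063 and -0.056. With the replicate block 1505 genes were higher and 1731 lower under therapy, 4 and 24 under prevention, and 149 positive and 183 negative between timings.

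Over the named genes and alternatives, 3957 values kept direction and side of the threshold, 442 lost the call, 49 gained it and 12 turned sign. Those 12 belong to genes that did not pass. Leaving out 1 therapy library, Fasn ranged over -0.33 to 0.13 (0.13 without 5% therapy replicate 1), Glul over -0.15 to 0.28 (-0.15 without 20% therapy replicate 2 and -0.05 without 5% therapy replicate 1), Gpnmb over -0.75 to 0.48 (0.48 without 5% therapy replicate 2), Mpi over -0.04 to 0.20 (-0.04 without 20% therapy replicate 1) and Pck1 over -0.13 to 0.23 (-0.13 without 20% therapy replicate 3 and -0.04 without 5% therapy replicate 2). Library totals gave 0.10 for Fasn, 0.11 for Nr1h3 and 0.15 for Scd1, and voom gave 0.14 for Gpnmb and -0.06 for Pck1. With 3 mice per dose and counts of 0 in single libraries, fold changes of Vmn2r3, Areg and Sprr1a depend on the prior count.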
